A study of Homo sapiens with 8 samples.

Results

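OR21, a DNA demethylating agent, was set against no treatment in MT-2, a line of human T cells that carries HTLV-1, the retrovirus that causes adult T cell leukaemia. The comparison took the MT-2 array with OR21 at 100 nM minus the MT-2 array without compound, on the deposited log2 scale, over all 17709 transcript probe sets with a gene symbol (17687 genes) among 24351 entries of the table. These are 2 of the 8 arrays of a study of 2 T cell lines, MT-1 and MT-2, each left untreated or given OR21, the EZH2 inhibitor EPZ-6438 (tazemetostat), or both. MT-2 cells were exposed for 96 h, and every compound was given at seeding and again after 48 h. Values set beside the comparison came from the MT-2 array with 100 nM OR21 and 500 nM EPZ-6438 minus the MT-2 array with 500 nM EPZ-6438, and from MT-1 cells with 500 nM OR21 minus untreated MT-1 cells. All groups grew in RPMI-1640 with fetal bovine serum, and each was 1 array of 1 cell line, so no difference below has a replicate error and no test was made. Precision is limited by having so few arrays.

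Methyl groups on CpG sites of a promoter are associated with silencing of the gene, and the enzyme DNMT1 copies them onto new DNA strands at replication. Agents that block this copying dilute methylation as cells divide, and germ cell genes, immune mediators and genes of viral defence are known to come on in tumour cells exposed to them. MT-2 is a widely used model of HTLV-1 infection, a line that makes many cytokines and surface molecules of activated T cells. Neither methylation nor protein was measured here. In RNA from a whole culture, fewer cells that carry a transcript and less of it per cell cannot be told apart.

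A signal counted as above background where it exceeded the level under which 95% of its array's negative controls fell, which stood at 7.56 with OR21 and 7.80 in untreated cells. A probe set above background on only 1 of the arrays was set against the background level of the other, and its difference is then a bound, worded "at least" (higher) or "or lower" (lower). On this basis 7341 probe sets could be compared, 6878 of them above background on both arrays, 278 with OR21 only and 185 in untreated cells only. The other 10368 gave no difference, because their signal exceeded no background or only the lower one. With OR21, 77 probe sets (1.05% of those compared) were higher by 1 log2 unit or more (a fold of 2), and 101 (1.38%) were lower by as much. Most values moved little: 5837 probe sets (79.5%) differed by less than 0.5, the median difference was -0.09, and the SD of the differences measured on both arrays was 0.40. Which direction had more probe sets turned with the scaling, since centring each array on its median gave 66 higher and 126 lower, and cyclic loess gave 105 higher and 56 lower. Positive-control probe sets passed 1 log2 unit too, with 25 higher and 42 lower of 2063 compared (3.25%), a larger share than the 1.05% and 1.38% of the gene probe sets together. Of 37 negative controls that could be compared, 2 were higher and 5 lower (18.9%). These exceeded a background set from the same 612 negative controls, so the share covers only the highest of them.

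The label of the cells was checked against T cell markers. IL2RA, the interleukin-2 receptor alpha chain that HTLV-1-infected T cells carry, had a level of 16.96 with OR21 and 16.58 in untreated cells, and CD4 had 12.28 with OR21 and 12.23 in untreated cells. CCR4, CD5, CD7 and CD247 also stood above background with OR21, whereas CD2, CD28, CD3D, CD3E, CD3G, FOXP3 and LCK did so on neither array. Of the markers of other cells, 0 of 6 myeloid, 0 of 3 erythroid and 0 of 3 endothelial markers were above background. With OR21, 3 of 5 B cell, 1 of 5 NK cell, 1 of 5 epithelial and 1 of 4 fibroblast markers were, and in untreated cells 1 of 5 B cell, 1 of 5 NK cell, 1 of 5 epithelial and 0 of 4 fibroblast markers. The B cell kinase gene BLK (10.34 with OR21 and 11.09 in untreated cells), the NK cell gene NKG7 (11.29 with OR21 and 10.92 in untreated cells) and the keratin KRT8 were above it on both arrays, and CD79A, CD79B and the collagen COL1A2 only with OR21. The background was lower on the OR21 array (7.56) than on the untreated one (7.80). CD79A differed by at least 0.03 and COL1A2 by at least 0.34, and CD79B gave no difference. The part of all these markers in the results below was not tested. The means of the marker lists were 7.48 with OR21 and 7.55 in untreated cells for the 13 T cell markers, and 7.27 with OR21 and 7.45 in untreated cells for the 5 B cell markers.

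**Figure D1:**
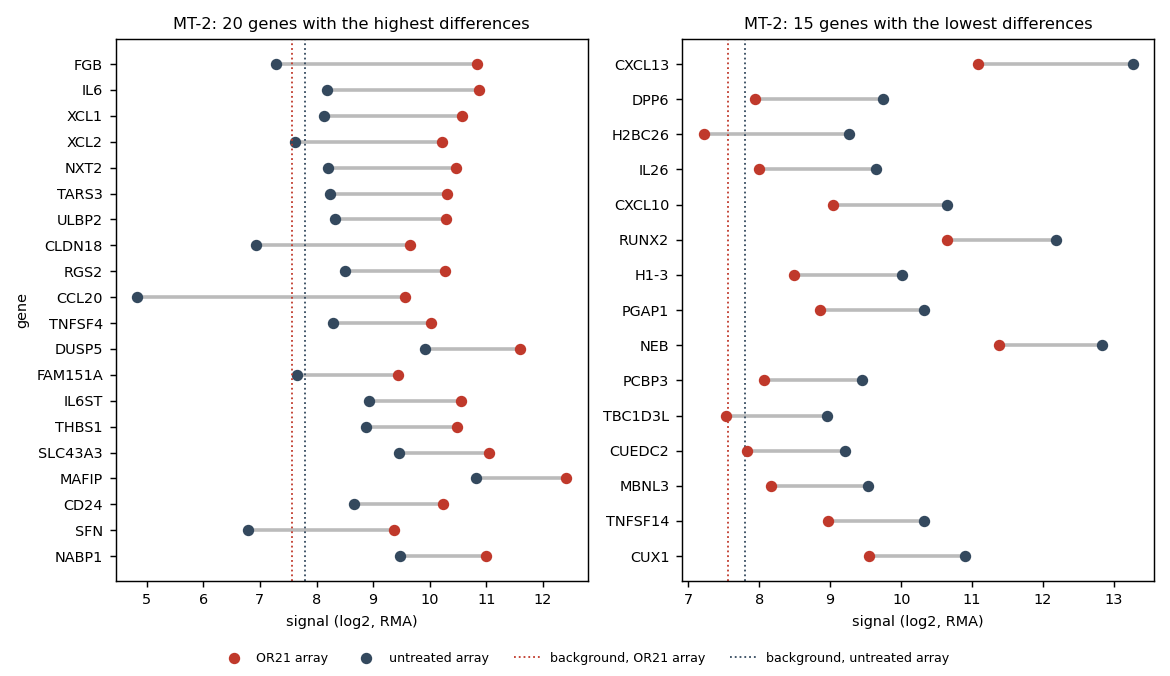
Signal (log2, RMA) in MT-2 cells with OR21 (red) and without compound (dark blue) of the 20 genes with the highest differences (left) and the 15 with the lowest (right). Dotted lines mark the background of each array, and 6 of the genes on the left, FGB, XCL2, CLDN18, CCL20, FAM151A and SFN, lie under it in untreated cells.

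Secreted immune mediators were among the genes with the highest differences. IL6, a cytokine of inflammation and of B cell help, had a level of 10.88 with OR21 and 8.18 in untreated cells, a difference of 2.70. XCL1 had 10.56 with OR21 and 8.14 in untreated cells, and XCL2 had 10.21 with OR21 and 7.62 in untreated cells, under background there, which makes their differences 2.43 and at least 2.41. These lymphotactins attract the dendritic cells that present antigen to CD8 T cells, and since the genes are near-identical copies, a probe set of one may read the other. CCL20, which attracts cells bearing the receptor CCR6, had 9.56 with OR21, where untreated cells had 4.83, far under background, so its difference of at least 1.75 is a bound set by the background. CCL1, the ligand of CCR8, had 11.45 with OR21 and 10.23 in untreated cells, a difference of 1.22. All of these were also higher when OR21 was added to EPZ-6438, an increment measured on other arrays: XCL2 by 5.08, XCL1 by 4.64, CCL20 by at least 3.51, IL6 by 2.57 and CCL1 by 1.77. For OR21 alone, XCL2 and CCL20 no longer passed 1 with the 99th percentile of the negative controls as background.

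The promoter windows of 4 of the higher immune genes are shown because CpG sites are where DNA methylation lies. They are RefSeq sequences of GRCh38.p14, from 250 bases before to 50 bases after the annotated start, 5′ to 3′ on the strand of the gene, with every CG in capitals. The IL6 window lies at chr7:22726950-22727249 (plus strand), that of CCL20 at chr2:227813592-227813891 (plus), that of XCL2 at chr1:168543948-168544247 (minus) and that of ULBP2, a ligand of an activating NK cell receptor described below, at chr6:149941764-149942063 (plus).
IL6: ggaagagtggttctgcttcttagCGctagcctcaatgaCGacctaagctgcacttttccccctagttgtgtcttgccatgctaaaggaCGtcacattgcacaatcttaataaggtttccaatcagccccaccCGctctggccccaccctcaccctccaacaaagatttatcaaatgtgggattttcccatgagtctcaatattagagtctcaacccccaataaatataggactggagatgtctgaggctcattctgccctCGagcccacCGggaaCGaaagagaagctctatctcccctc
CCL20: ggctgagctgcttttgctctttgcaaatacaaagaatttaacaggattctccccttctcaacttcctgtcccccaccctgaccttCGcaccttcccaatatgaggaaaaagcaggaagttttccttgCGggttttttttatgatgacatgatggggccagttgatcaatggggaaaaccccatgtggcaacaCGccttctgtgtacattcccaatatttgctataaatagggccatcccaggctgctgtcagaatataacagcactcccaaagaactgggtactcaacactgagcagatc
XCL2: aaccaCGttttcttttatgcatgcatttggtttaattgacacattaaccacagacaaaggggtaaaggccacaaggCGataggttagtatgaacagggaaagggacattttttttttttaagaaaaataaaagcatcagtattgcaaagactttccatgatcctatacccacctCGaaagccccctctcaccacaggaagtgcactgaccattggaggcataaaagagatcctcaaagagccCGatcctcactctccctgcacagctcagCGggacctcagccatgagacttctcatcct
ULBP2: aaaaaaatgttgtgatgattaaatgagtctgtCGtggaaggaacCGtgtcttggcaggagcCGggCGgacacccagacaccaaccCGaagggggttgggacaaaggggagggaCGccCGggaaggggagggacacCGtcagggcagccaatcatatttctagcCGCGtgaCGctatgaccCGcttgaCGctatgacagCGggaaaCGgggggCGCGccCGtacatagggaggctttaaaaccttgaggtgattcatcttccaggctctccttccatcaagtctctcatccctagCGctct
The windows of the chemokines and of IL6 are poor in CG, with 3 in CCL20, 5 in XCL2 and 7 in IL6, where that of ULBP2 has 19. Matches to a 10-letter NF-kappaB consensus were found at first base -73 of IL6 (gggattttcc) and -79 of CCL20 (ggaaaacccc), counted from the start. Of all promoters in the table, 7.41% hold such a match on either strand, so a match describes the letters only.

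Over the chemokine list, 9 of 38 genes could be compared, and 4 were higher by 1 or more and 2 lower, where 1.05% and 1.38% of all compared were. The median difference of the list was 0.98, where all probe sets had -0.09. The 99th percentile background left 8 chemokines compared, with 2 higher and 2 lower. The 2 lower ones carried large signals. CXCL13, which guides B cells and follicular T cells, had 11.08 with OR21 and 13.27 in untreated cells, a difference of -2.18 and the lowest of all genes compared. CXCL10, an interferon-induced attractant of T cells, had 9.04 with OR21 and 10.64 in untreated cells, a difference of -1.60. When OR21 was added to EPZ-6438, the differences were -1.11 for CXCL13 and -1.31 for CXCL10. CCL3L3 (0.98) and CCL3 (0.63), which attract monocytes and are close copies of each other, lay above 0 without reaching 1, and CX3CL1 had -0.21. CCL5 gave no difference, and CCL2, at 6.73 with OR21 and 4.93 in untreated cells, stood above background only with the combination (at least 4.26 over EPZ-6438 alone).

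Among cytokines, 12 of 52 could be compared, with a median of 0.31. By 1 or more, 2 were higher and 1 lower, where 1.05% and 1.38% of all compared were. Besides IL6, IL10, a cytokine that dampens inflammation, was higher by 1.08, at 14.15 with OR21 and 13.07 in untreated cells. IL26, a cytokine of the IL-10 family, went the other way, with 7.99 with OR21 and 9.64 in untreated cells (-1.65), and with EPZ-6438 present the difference was -2.0 or lower. For OR21 alone, IL26 no longer passed -1 with the 99th percentile background. VEGFA (0.81), which drives vessel growth, and IL32 (0.69) came closest to 1 among the others. Of the 22 cytokine receptor probe sets compared, IL6ST alone passed 1. It encodes gp130, the signalling chain shared by the receptors of the IL-6 family, and had 10.54 with OR21 and 8.93 in untreated cells (1.62), so that IL6 and the signal transducer of its receptor were both higher on the OR21 array. CCR6, the receptor of CCL20, was the one chemokine receptor of 5 compared to pass 1, with 9.54 with OR21 and 8.33 in untreated cells (1.20, and at least 0.23 with the 99th percentile of the negative controls as background). With EPZ-6438 present, IL6ST was higher by 1.90 and CCR6 by 1.98.

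**Figure D2:**
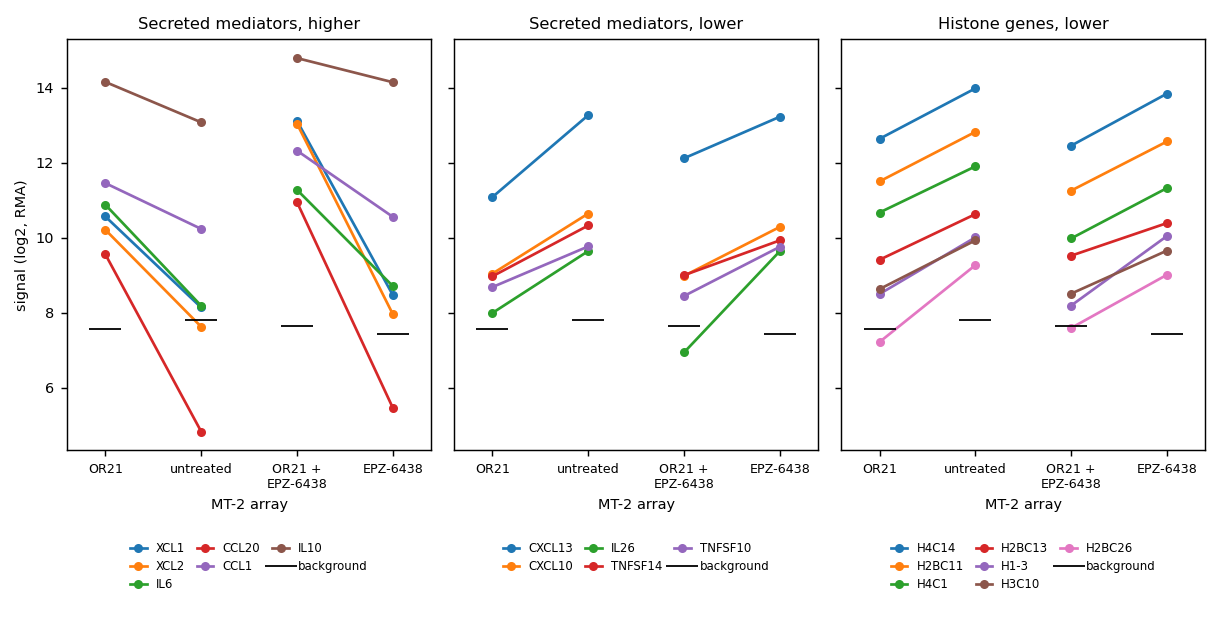
Signal (log2, RMA) on the 4 MT-2 arrays for mediators that were higher with OR21 (left), mediators that were lower (centre) and histone genes that were lower (right). Lines join each array with OR21 to the array without it, black dashes mark the background of each array, and every gene shown moved the same way in both pairs.

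The TNF family split in both directions. TNFSF4, the OX40 ligand, which costimulates T cells, had 10.03 with OR21 and 8.29 in untreated cells (1.74), and CD40, a receptor of B cells and antigen-presenting cells, had 9.59 with OR21 and 8.38 in untreated cells (1.22). TNFSF14, the ligand LIGHT, had 8.97 with OR21 and 10.32 in untreated cells (-1.36). The death ligand TNFSF10 (TRAIL) had 8.68 with OR21 and 9.77 in untreated cells (-1.08), and CD70, the ligand of CD27, had 12.12 with OR21 and 13.14 in untreated cells (-1.02). TNFRSF18, the costimulatory receptor GITR, had 10.96 with OR21 and 12.02 in untreated cells (-1.06). In all, 1 of 6 ligands compared was higher and 3 lower, around a median of -0.47 (0.057 with a lower background and 0.087 with none), and cyclic loess left 1 of the 3 lower. Of 11 receptors compared, 1 was higher and 1 lower, and cyclic loess left 0 lower. Among all probe sets compared, 1.05% were higher and 1.38% lower. With the 99th percentile of the negative controls as background, TNFSF4 (at least 0.72) and CD40 (at least 0.28) no longer passed 1, and TNFSF10 no longer passed -1. Adding OR21 to EPZ-6438 gave 1.90 for TNFSF4, 1.08 for CD40, -1.31 for TNFSF10 and -0.93 for TNFSF14, but only -0.21 for CD70. CD274, the checkpoint ligand PD-L1, was higher by 1.06 (10.69 with OR21 and 9.63 in untreated cells) and by 1.54 with EPZ-6438 present.

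Ligands that mark stressed cells for NK cells were among the higher genes. ULBP2, a ligand of the activating receptor NKG2D, had 10.29 with OR21 and 8.32 in untreated cells (1.97). Its relative ULBP3 had 10.01 with OR21 and 8.73 in untreated cells (1.28). ULBP1 and RAET1L, further members of the family, stood above background only with OR21, by at least 0.90 and at least 0.83. MICB (0.22) and MICA (-0.27), the other kind of NKG2D ligand, differed by less than 0.5. Of the 11 NK cell ligands compared, 2 were higher by 1 or more, where 1.05% of all compared were, and the median was 0.50. CLEC2B, the ligand of NKp80, was lower (9.43 with OR21 and 10.65 in untreated cells, -1.22), as 1.38% of all compared were. With the 99th percentile of the negative controls as background, ULBP2 (at least 0.98) and ULBP3 (at least 0.70) no longer passed 1. With EPZ-6438 present the increments were 2.36 for ULBP2, 1.24 for ULBP3, at least 1.52 for ULBP1 and at least 2.01 for RAET1L.

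Genes of viral defence and of antigen presentation held few members past 1. Of 27 interferon-stimulated genes compared, 18 lay above 0 with a median of 0.35, where 2921 of all 7341 lay above 0, and 1 passed 1 in each direction. PARP12, an antiviral ADP-ribosyltransferase, had 10.70 with OR21 and 9.60 in untreated cells (1.10), and IFI16, a sensor of DNA in the nucleus, had 11.79 with OR21 and 13.10 in untreated cells (-1.31). TRIM22 (0.89), SAMD9L (0.79) and LY6E (0.78) were the next highest, and ISG20 (-0.90) the next lowest. STING1, the adaptor that passes on the signal of cytosolic DNA sensing, was the 1 gene of 11 nucleic acid sensing genes to pass 1, with 11.99 with OR21 and 10.55 in untreated cells (1.45), and 1.51 with EPZ-6438 present. Its upstream enzyme CGAS had -0.20, and the RNA sensors IFIH1 and DHX58 had 0.22 and at least 0.73. None of the 16 HLA class I and peptide loading probe sets or the 13 class II probe sets passed 1 in either direction, with medians of 0.11 for class I and 0.08 for class II (-0.08 with a lower background or none). The NF-kappaB components, whose pathway drives many of the mediators above in other cells, had a median of 0.02 over 24 compared (-0.01 with array median centring), and only the inhibitor TNIP3 passed 1, with 7.78 with OR21 and 9.03 in untreated cells (-1.25). With the 99th percentile background TNIP3 no longer passed -1.

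Few germline genes had a signal above background. Of 68 cancer-testis genes on the array, 10 could be compared, 4 were higher by 1 or more (3 with array median centring) and 0 lower, with a median of 0.60. Of all probe sets compared, 1.05% were higher and 1.38% lower. Only 4 cancer-testis genes could be compared with the 99th percentile of the negative controls as background, and 1 of them was higher (median 0.33). SSX2B had 9.20 with OR21, where untreated cells had 5.50, under background, so that its difference of at least 1.4 is a bound, and it was higher by at least 2.70 with EPZ-6438 present. PRAME, an antigen of many tumours, had 10.67 with OR21 and 9.60 in untreated cells (1.07). PAGE2B had 9.44 with OR21 and 8.33 in untreated cells (1.10), and PAGE2 had 8.84 with OR21 and 7.71 in untreated cells (at least 1.04). PAGE and SSX genes have near-identical relatives, so which member of each family a probe set read is uncertain. Of 7 germ cell genes compared, only TUBA3C, a testis tubulin that also has close copies, passed 1 (1.14). GTSF1, which acts in piRNA silencing in germ cells, had 8.61 with OR21 and 3.59 in untreated cells, yet the background of 7.80 limits the stated difference to at least 0.81.

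The machinery of DNA methylation itself did not pass 1 in any of 26 genes compared, with a median of -0.07 (0.02 with cyclic loess). DNMT1 had 10.10 with OR21 and 10.58 in untreated cells (-0.47), and its partner UHRF1, which finds hemimethylated DNA, had 11.55 with OR21 and 12.16 in untreated cells (-0.61). DNMT3A, a de novo methyltransferase, had 9.35 with OR21 and 8.51 in untreated cells (0.84), and DNMT3B stood barely above background with OR21 (7.91, at least 0.10). TET3, which oxidises methylcytosine, had 8.55 with OR21 and 9.45 in untreated cells (-0.90). Added to EPZ-6438, OR21 gave -0.53 for DNMT1 and -0.99 for UHRF1, but 0.12 for DNMT3A and 0.14 for TET3. These are transcript levels, and some demethylating agents act on the DNMT1 protein, which was not measured.

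Of the 47 gene lists, that of the histone genes held the most lower members by count. By share it did not rank first, since 3 of 6 TNF family ligands and 2 of 9 chemokines were lower. Of 53 histone probe sets compared, 46 lay under 0, where 4420 of all 7341 did. By 1 or more, 9 were lower, where 1.38% of all compared were, and 1 was higher. The median was -0.59, and that of the 12 fatty acid genes was -0.64. The 9 were H2BC26, H1-3, H4C14, H2BC11, H3C10, H4C1, H2BC13, H2AC8 and H3C7. The linker histone gene H1-3 had 8.50 with OR21 and 10.01 in untreated cells (-1.51). H4C14 had 12.63 with OR21 and 13.98 in untreated cells (-1.34), and H2BC11 had 11.50 with OR21 and 12.82 in untreated cells (-1.32). H2BC26 was under background with OR21, at 7.22, and had 9.27 in untreated cells (-1.70 or lower). H4C15, outside the list and named after its values were seen, is a near-identical copy of H4C14 and had -1.22. Most core and linker histone genes are expressed in S phase, when new DNA is packed into chromatin. The 1 higher member was H1-1, with 8.82 with OR21 and 7.48 in untreated cells, under background (at least 1.02, and no longer past 1 with array median centring or the 99th percentile background). When OR21 was added to EPZ-6438, the list had a median of -0.67 over 52 compared, with 13 lower and 1 higher by 1 or more. The list median stayed between -0.64 and -0.57 under the other scalings. The 99th percentile background left 44 compared and 6 lower, and H2BC26, H1-3 and H3C10 no longer passed -1.

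The promoter windows of H2BC11, H1-3 and H3C10 are shown, since S phase histone genes share short promoter elements. They come from RefSeq GRCh38.p14 as above, and capitals mark CCAAT and TATAAA on either strand (ATTGG and TTTATA on the other one), which overlap each other once in H2BC11. H2BC11 lies at chr6:27132746-27133045 (minus), H1-3 at chr6:26234938-26235237 (minus) and H3C10 at chr6:27809801-27810100 (plus).
H2BC11: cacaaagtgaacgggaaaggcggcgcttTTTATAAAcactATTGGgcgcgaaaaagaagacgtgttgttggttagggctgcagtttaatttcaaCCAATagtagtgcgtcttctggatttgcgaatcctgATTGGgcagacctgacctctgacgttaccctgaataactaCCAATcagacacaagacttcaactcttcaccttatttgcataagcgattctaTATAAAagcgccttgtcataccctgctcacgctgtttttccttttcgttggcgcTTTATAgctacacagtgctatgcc
H1-3: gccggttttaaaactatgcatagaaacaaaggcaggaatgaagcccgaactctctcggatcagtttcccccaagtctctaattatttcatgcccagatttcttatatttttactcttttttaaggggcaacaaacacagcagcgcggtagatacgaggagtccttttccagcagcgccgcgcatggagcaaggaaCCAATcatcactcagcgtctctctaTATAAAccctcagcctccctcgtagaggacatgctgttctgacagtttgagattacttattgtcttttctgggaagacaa
H3C10: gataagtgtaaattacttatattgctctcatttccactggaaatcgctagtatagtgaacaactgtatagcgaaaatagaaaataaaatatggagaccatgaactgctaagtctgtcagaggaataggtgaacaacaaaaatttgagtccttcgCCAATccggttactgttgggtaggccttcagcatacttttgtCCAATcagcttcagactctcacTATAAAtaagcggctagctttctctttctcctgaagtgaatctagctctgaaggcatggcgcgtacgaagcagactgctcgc
TATAAA begins 28 bases before the start in H2BC11 (-28), and at -30 in H1-3 and -32 in H3C10, with a CCAAT upstream of it in each. Of the 8 lower histone genes with a window, 7 hold CCAAT and 6 hold TATAAA. These shares are those of the histone genes as a family rather than of the lower ones, since 41 of 49 compared histone genes (83.7%) hold CCAAT and 32 (65.3%) hold TATAAA. Over all promoters of the table the shares are 35.7% and 12%.

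The genes of DNA replication and of mitosis also lay mostly under 0, as did 4420 of all 7341 probe sets compared. Of 31 replication genes compared, 25 lay under 0 and 2 passed -1, with a median of -0.32. MCM6, a subunit of the replicative helicase, had 10.00 with OR21 and 11.14 in untreated cells (-1.14), and POLE, the catalytic subunit of the leading strand polymerase, had 7.63 with OR21 and 8.78 in untreated cells (-1.15). With EPZ-6438 present MCM6 was again lower (-1.04), while POLE differed by -0.11. For OR21 alone, POLE no longer passed -1 with the 99th percentile background. ASF1A, a chaperone that hands histones to new DNA, had 9.61 with OR21 and 10.71 in untreated cells (-1.10). Of 43 mitosis genes compared, 35 lay under 0 and CCNB2, a B-type cyclin, passed -1 (10.30 with OR21 and 11.47 in untreated cells, -1.17), with a median of -0.23. With cyclic loess the medians were -0.21 for replication and -0.13 for mitosis. The p53 targets lay on the other side, with 25 of 34 above 0 and a median of 0.33. By 1 or more, 3 were higher, SFN, RRM2B and RPS27L, where 1.05% of all compared were. Only SFN (1 gene) still passed 1 with array median centring, and only RRM2B and RPS27L (2 genes) with the 99th percentile background. SFN, the checkpoint protein 14-3-3 sigma, had 9.37 with OR21 and 6.79 in untreated cells (at least 1.57), and RRM2B, a p53-induced subunit of ribonucleotide reductase, had 12.80 with OR21 and 11.78 in untreated cells (1.02). Cell numbers and cell cycle stages were not measured, so a change in the share of cells in S phase was not tested.

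**Figure D3:**
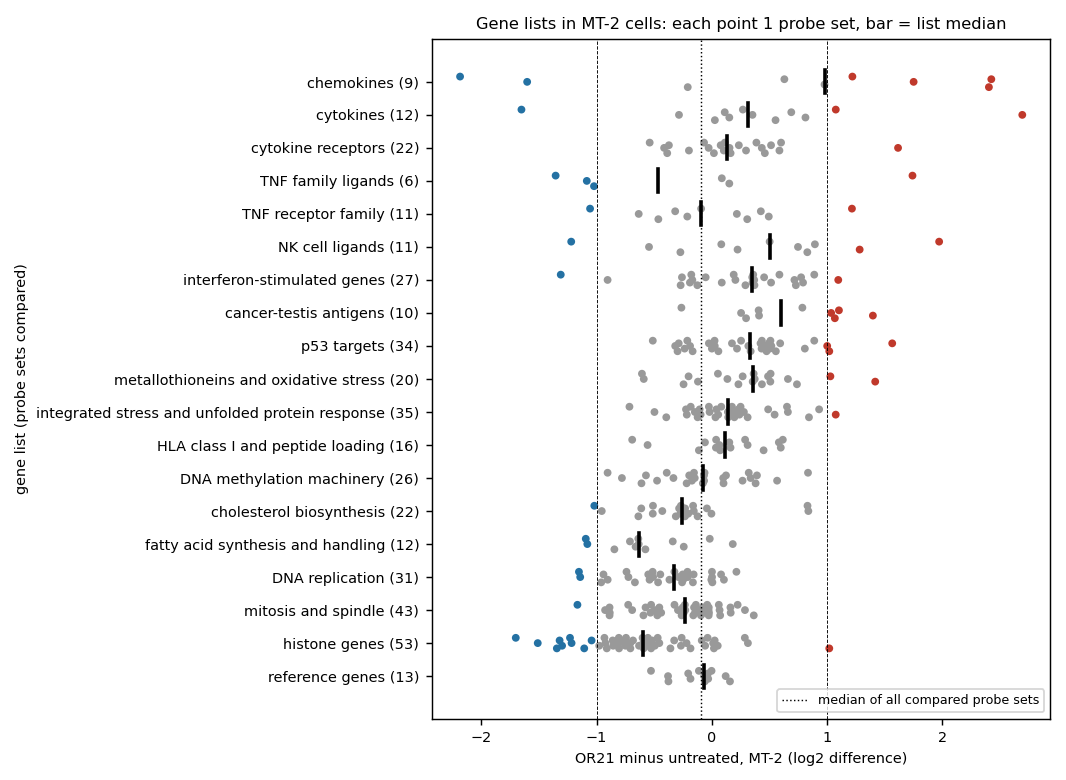
Differences (log2, OR21 minus untreated, MT-2) of the members of 19 gene lists, with 1 point per probe set compared, the number compared in parentheses and a black bar at the list median. Red points are higher and blue points lower by 1 or more, and the dotted line is the median of all compared probe sets (-0.09). The histone list (-0.59) lies furthest left among lists of more than 12 members, and the fatty acid list of 12 members lies further left (-0.64).

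Lipid synthesis genes lay mostly under 0, again beside 4420 of all 7341. Of 22 cholesterol synthesis genes compared, 20 lay under 0 with a median of -0.26, and HSD17B7 passed -1 (10.65 with OR21 and 11.67 in untreated cells, -1.02). LSS (0.83) and TM7SF2 (0.84), enzymes of the middle of the pathway, were the 2 above 0. Among 12 fatty acid genes compared, 11 lay under 0 with a median of -0.64. ACACA, the first committed enzyme of fatty acid synthesis, had 9.98 with OR21 and 11.06 in untreated cells (-1.08), and the desaturase SCD5 had 9.10 with OR21 and 10.19 in untreated cells (-1.09). With cyclic loess none of these 3 genes passed -1, and the median of the cholesterol genes was -0.16. Among metallothioneins and oxidative stress genes, 15 of 20 lay above 0 (median 0.36). NQO1, a quinone reductase, had 9.22 with OR21 and 7.56 in untreated cells (at least 1.42), and MT1H, a metallothionein with close copies, had 9.03 with OR21 and 8.0 in untreated cells (1.03). The 13 reference genes had a median of -0.07, with ACTB lowest at -0.53 and 0 past 1.

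Many of the other genes at both ends are not known for immune roles. FGB, the beta chain of fibrinogen, a liver protein, had the highest difference of all, with 10.84 with OR21 and 7.29 in untreated cells, under background (at least 3.03). CLDN18, a tight junction protein of stomach and lung, had 9.66 with OR21 and 6.93 in untreated cells (at least 1.85). NXT2, a cofactor of messenger RNA export, had 10.46 with OR21 and 8.19 in untreated cells (2.26), and TARS3, a threonyl-tRNA synthetase, had 10.30 with OR21 and 8.23 in untreated cells (2.07). Regulators of signalling were present as well, with RGS2, which limits G protein signals, at 10.27 with OR21 and 8.50 in untreated cells (1.77) and DUSP5, a phosphatase of ERK, at 11.59 with OR21 and 9.92 in untreated cells (1.67). THBS1, the matrix protein thrombospondin-1, had 10.49 with OR21 and 8.88 in untreated cells (1.61). Further genes among the highest were FAM151A (at least 1.64), the purine transporter gene SLC43A3 (1.60), MAFIP (1.60), CD24 (1.57) and NABP1 (1.52). Of these higher genes, CLDN18, TARS3, RGS2, FAM151A and CD24 no longer passed 1 with the 99th percentile of the negative controls as background. At the lower end, DPP6, a subunit of neuronal potassium channels, had 7.94 with OR21 and 9.74 in untreated cells (-1.80). RUNX2, the transcription factor of bone formation, had 10.64 with OR21 and 12.19 in untreated cells (-1.54). The muscle protein gene NEB had 11.38 with OR21 and 12.83 in untreated cells (-1.45), and PGAP1 (-1.46), PCBP3 (-1.39), TBC1D3L (-1.38 or lower), CUEDC2 (-1.38), MBNL3 (-1.37) and CUX1 (-1.35) completed the 15 lowest. NOTCH1, mutated in T cell leukaemias, was under background with OR21 (7.34) and had 8.76 in untreated cells (-1.20 or lower). With the 99th percentile background, 24 of the 38 named lower probe sets still passed -1. DPP6, PCBP3, TBC1D3L, CUEDC2, MBNL3 and NOTCH1 did not.

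The 2 MT-2 arrays with EPZ-6438 gave a separate measurement of adding OR21, which shares no array with the one above. Of the 77 higher probe sets, 51 (66.2%) were again higher by 1 or more there, 0 were lower by 1, and 74 had the same sign, with a median of 1.31. Of all probe sets compared in that pair, 2.08% were higher by 1 or more, and the median over all of them was -0.01. Of the 99 lower probe sets that could be compared there, 23 (23.2%) were again lower by 1 or more, 0 were higher by 1, and 94 had the same sign, with a median of -0.63, where 0.738% of all compared were lower. The genes with the highest smaller value of the 2 differences were FGB, IL6, XCL1, XCL2 and NXT2, and those with the lowest were IL26, H1-3, H2BC26, NEB and H4C14. FGB was higher by at least 3.60 there and NXT2 by 2.11, while NEB had -1.36 and H1-3 had -1.85. Other lower genes differed less in that pair, where MBNL3 differed by -0.00, CUEDC2 by 0.03 and RUNX2 by -0.49. The 3 higher probe sets with the opposite sign, named after their values were seen, were PDZD4 (1.29 without EPZ-6438 and -0.53 with it), MRPL38 (1.04 without and -0.69 with it) and ODF2L (1.18 without and -0.17 with it). Across 6769 probe sets compared in both pairs the differences correlated at r = 0.58 (Spearman's rho = 0.51), as a description across genes, which are not independent replicates.

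**Figure D4:**
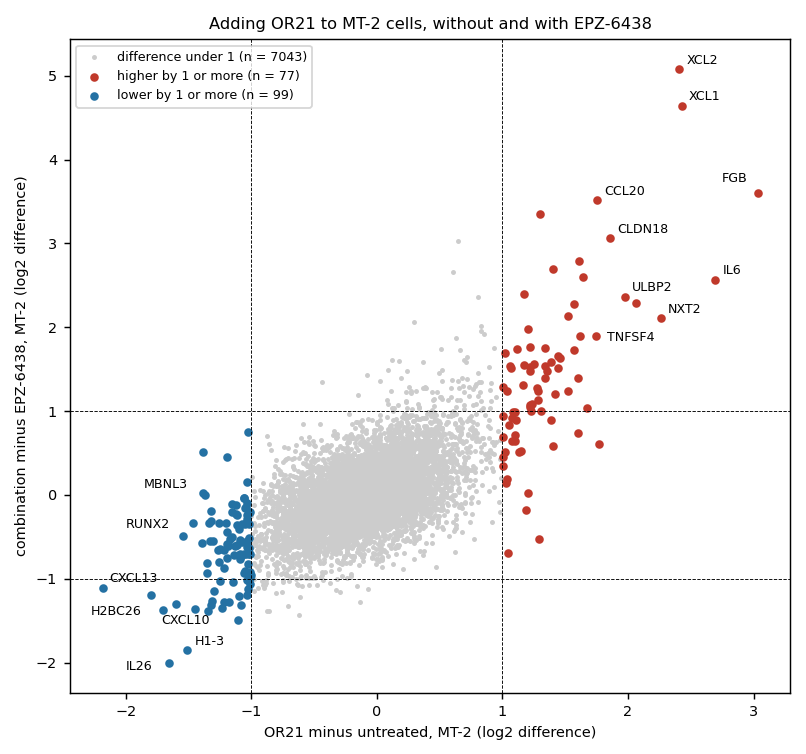
Log2 differences of adding OR21 to MT-2 cells, without EPZ-6438 (horizontal axis, OR21 minus untreated) and with it (vertical axis, combination minus EPZ-6438), for each probe set compared in both pairs. Dashed lines mark differences of 1 and -1, and the 77 higher probe sets (red) lie above the upper line in 51 cases, whereas 23 of the 99 lower ones (blue) lie below the lower line.

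MT-1 cells received 500 nM OR21 rather than 100 nM, so that dose and cell line differ together and cannot be told apart. Of the 50 higher probe sets that could be compared in MT-1, 8 (16%) were higher by 1 or more there as well and 3 were lower by 1, where 2.75% of all compared were higher. Those 8 were NXT2 (1.38 in MT-1), SFN (3.04), NQO1 (2.23), SSX2B (at least 7.0), YPEL5 (1.45), CCDC85A (at least 1.32), PAGE2B (at least 1.5) and H1-1 (1.85). Of 82 lower probe sets compared there, 14 (17.1%) were lower by 1 or more and 0 higher, where 3.91% of all compared were lower, and H2BC26 (-2.54 in MT-1), HSD17B7 (-1.73) and H3C10 (-1.01) were among them. The secreted mediators IL6, XCL1, XCL2, CCL20, CCL1 and IL10 gave no difference in MT-1 because they did not exceed background there on either array. In the other direction, TUBA8 differed by -0.86 in MT-2 and 4.99 in MT-1, H4C5 by -0.26 in MT-2 and 4.68 in MT-1, ID2, an inhibitor of transcription factors, by 0.07 in MT-2 and 3.28 in MT-1, LMNA, the nuclear lamin A, by -0.78 in MT-2 and 1.96 in MT-1, and ZSWIM6 by -0.71 in MT-2 and 1.97 in MT-1. In untreated MT-2 cells TUBA8 stood at 10.28, H4C5 at 16.92, ID2 at 16.19, LMNA at 14.60 and ZSWIM6 at 13.08. Across 6131 probe sets the differences of the lines correlated at r = 0.20 (rho = 0.19).

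The promoters of the genes that passed 1 were described by their letters, a property that the comparison did not use. Of the 178 probe sets, 141 matched a gene with a window. The windows of the 59 higher ones held a median of 20 CG (quartiles 8 and 30.5), those of the 82 lower ones 21.5, and those of the 6057 compared probe sets that passed 1 in neither direction 27 (quartiles 19 and 34). The ratio of CG observed to CG expected from base composition had medians of 0.71 for the higher, 0.82 for the lower and 0.86 for the rest. Probe sets that gave no difference had a median of 16. Among probe sets with a mean level under 10, the higher ones had a median of 19 and the rest 27. An NF-kappaB match lay in 7 of the 59 higher windows (11.9%), 9 of the 82 lower ones (10.98%) and 9.01% of the rest. TGANTCA, the letters of the AP-1 site, lay in 4 higher windows (6.78%), 3 lower ones (3.66%) and 3.98% of the rest, and in 7.09% of those of probe sets that gave no difference. The window is 1 per gene where 41 called genes have several, and no methylation was measured in it.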

How the data were processed

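The deposited table holds log2 values of 8 arrays, made by the authors with RMA, per the submitters' processing notes. RMA corrects for background, normalizes the arrays to each other and summarises the probes into a value per probe set. No version of it is given in the sources used here. That the base is 2 follows from RMA, and whether values were rescaled afterwards, since some exceed what a 16-bit scanner gives, is not given either. Per the labels' protocols, total RNA was treated with DNase and single-stranded cDNA was fragmented and labelled with biotin.

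Of 21448 transcript probe sets, 17709 had exactly 1 gene symbol in the platform annotation, 0 had several and 3739 had none. The reference gene table held the Entrez identifiers of all 17709. Between the MT-2 arrays with OR21 and without compound (r = 0.988 over the named probe sets), differences of 1 log2 unit or more above background were counted with no test, because each group has 1 array. The counting was tested on simulated data, with shifts of 1.5 planted in probe sets well above background. That checks the counting itself and does not cover signals near background or the spread between these arrays. Alternatives were other scalings (array median centring, and cyclic loess in limma 3.58.1 under R 4.3.3), backgrounds (99th and 75th percentiles of the negative controls, or none), thresholds (0.58 and 1.5) and unnamed probe sets included.

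The comparison, the gene lists and the tests were chosen with earlier results of these data known. Genes were named by a rule: the 20 highest and 15 lowest, up to 4 members of each list with the largest absolute difference and any past 1, the 5 highest and 5 lowest by the smaller of the MT-2 differences without and with EPZ-6438, the 5 largest gaps between MT-2 and MT-1 each way, DNA methyltransferases and T cell markers. Genes named beyond this rule were chosen after their values were seen. Promoter windows were matched by gene identifier to RefSeq (GRCh38.p14), with the first listed window of a gene. Python 3.11.15 with pandas 2.3.3 and numpy 2.4.6 was used.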

Additional observations from a re-analysis of the deposited data

Results flagged for a closer look

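The 3739 transcript probe sets without a gene symbol were left out of the report. Of these, 1107 were compared, and 10 were higher by 1 or more with OR21 (up to 1.98) and 16 lower (down to -1.97). When OR21 was added to EPZ-6438, 6 of the higher and 6 of the lower ones passed 1 the same way again.

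Genes that passed 1 in both lines with opposite signs are given here, and others had opposite signs with smaller differences. The difference between the lines was not tested, since each line had 1 array a side and received another dose. TARS3, a threonyl-tRNA synthetase, was higher by 2.07 in MT-2 cells, where it was also higher by 2.29 with EPZ-6438 present, and differed by -1.14 in MT-1 cells. STC2, a secreted glycoprotein induced by cell stress, was higher by 1.45 in MT-2 cells and by 1.64 with EPZ-6438 present, and differed by -1.31 in MT-1 cells. NCALD, a neuronal calcium sensor, was higher by 1.0 in MT-2 cells and by at least 0.69 with EPZ-6438 present, and differed by -1.56 in MT-1 cells. In untreated MT-2 cells STC2 (7.90) and NCALD (7.90) lay close to the background of 7.80, and TARS3 had 8.23. With the highest of the background levels tried, TARS3, STC2 and NCALD no longer passed 1 in MT-2 cells. NCALD did not pass 1 with array median centring either.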

How the results depend on the processing

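The counts of probe sets past 1 (77 higher and 101 lower) moved by over 1.5 times with the background level and the threshold. The 99th percentile of the negative controls gave 34 higher and 48 lower of 4804 compared, the 75th percentile 177 and 166, and no background level 211 and 169. A threshold of 0.58 gave 331 higher and 757 lower, and one of 1.5 gave 21 and 7. Cyclic loess left 56 lower, and kept 77 of the 77 higher and 56 of the 101 lower probe sets, while array median centring kept 66 and 101. The share of higher probe sets that passed 1 again with EPZ-6438 lay between 55.9% and 76.2% over all alternatives run, and that of the lower ones between 18.1% and 30.4%. The median of the TNF family ligands, -0.47 over 6 members, was 0.057 with the 75th percentile and 0.087 with no background level, where more members were compared. No named gene past 1 changed sign under these alternatives. The 99th percentile left no higher member among the NK cell ligands, TNF family ligands and receptors, chemokine receptors, germ cell genes, histone genes, stress response and metallothionein lists, and no lower one among the cytokines, NF-kappaB components and developmental transcription factors. Other list medians that did were all within 0.11 of 0 at the main setting, such as the nucleic acid sensing list (0.11, and -0.10 with no background level). Of 43 named higher probe sets, 20 remained past 1 with the 99th percentile and 37 with centring, and of 38 named lower ones 24 remained with the 99th percentile and 29 with cyclic loess. No paired analysis was possible because each group has 1 array. Signals near background, where bounds replace differences, limit what can be said of genes at rest in untreated cells.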

Other observations

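Some gene groups not described above held members past 1. In the list of the integrated stress and unfolded protein responses, 23 of 35 lay above 0 with a median of 0.14. XBP1, a transcription factor of the unfolded protein response, had 9.81 with OR21 and 8.74 in untreated cells (1.08), and CHAC1, an enzyme that degrades glutathione, had 8.74 with OR21 and 7.72 in untreated cells (at least 0.93). ASNS, asparagine synthetase, had 0.84 and PHGDH, the first enzyme of serine synthesis, -0.71. CBS, the enzyme that makes cystathionine, was read by 2 probe sets that gave 1.17 and 1.12, and 2.40 and 1.74 with EPZ-6438 present.

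Of 5 S100 family and partner genes compared, S100A10 passed 1. It had 14.01 with OR21 and 12.70 in untreated cells (1.31), and the annexin it binds, ANXA2, had 16.31 with OR21 and 15.87 in untreated cells (0.44). Another annexin, ANXA8, had 12.17 with OR21 and 10.88 in untreated cells (1.29), and its near-identical copy ANXA8L1 had 12.65 with OR21 and 11.31 in untreated cells (1.34). With EPZ-6438 present the differences were 1.0 for S100A10, 0.95 for ANXA2, 1.13 for ANXA8 and 1.54 for ANXA8L1. RHOB (1.25) and RHOC (1.05), small GTPases of the cytoskeleton, were both higher, while CNN2, a calponin that binds actin, had 9.45 with OR21 and 10.72 in untreated cells (-1.26). Among 64 subunits of the respiratory chain and ATP synthase 0 passed 1 in either direction (median -0.18), and the same held for 18 PRC2 and demethylase genes (median -0.15).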
